A study of Rattus norvegicus with 8 samples.

Results

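RNA-binding proteins of the QKI, PTB, ELAV-like, MBNL and NOVA families were followed between A2B5+ and GalC+ cells of the rat brain. The genes were Qki, Ptbp1, Ptbp2, Elavl1, Elavl2, Elavl3, Elavl4, Mbnl1, Mbnl2 and Nova1, and each was read from every probe set whose only gene symbol in the array's annotation table was that gene. Of these 10 genes, 8 were named by 19 probe sets, out of 14217 genes and 31042 probe sets in all. No probe set in that table named Qki or Nova1 alone, so these 2 genes were not analysed here. Elavl1 and Elavl2 had 3 probe sets each, Elavl3 had 2, Mbnl1 and Mbnl2 had 4 each, and Ptbp1, Ptbp2 and Elavl4 had 1 each.

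Both populations came from the whole brain of rats at postnatal day 7 and were separated by flow cytometry. The labels give no strain, genotype or treatment. A2B5 is a ganglioside epitope carried by glial progenitors but also by some neurons, and the labels call the A2B5+ cells oligodendrocyte progenitors. GalC is galactocerebroside, a lipid of myelin, and the labels call the GalC+ cells oligodendrocytes. Each population had 4 biological replicates, every one a pooled litter of 10 pups on 1 Affymetrix array, so a value is a mean over the animals of a litter.

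Proteins of these families bind short motifs in RNA and set which exons are kept, how long a messenger lasts and where it is translated. PTBP1 represses many exons used by neurons, and PTBP2 takes its place in young neurons. ELAVL1 (HuR) is found in most cells and stabilises messengers with AU-rich elements, while ELAVL2 (HuB), ELAVL3 (HuC) and ELAVL4 (HuD) are best known from neurons. MBNL1 and MBNL2 drive the switch from fetal to adult exons, and QKI is known for keeping myelin messengers in oligodendrocytes.

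Values are ratios: the signal of a probe set on an array divided by its own median across all 8 arrays. A ratio of 1 is therefore the middle of the 8 arrays, and the brightness of a probe set is not in the values, so levels of different genes were not compared. A difference is the mean log2 ratio in GalC+ minus that in A2B5+, with its standard error (SE) from limma, and a probe set was called where the Benjamini-Hochberg adjusted p over all probe sets was under 0.05. The arrays' median ratios lay between 0.979 and 1.03. Arrays of the same population differed by an SD of 0.21 to 0.34 in log2 ratio, and arrays of different populations by 0.42 to 0.68. The labelled cell types were set beside markers, on lists chosen with earlier results of these data known. Markers of other cell types, some of which differed too, are given further below. All 11 measured myelin genes were higher in GalC+ cells, against 18.2% of all genes called higher. Of 7 measured oligodendrocyte progenitor markers, 3 were lower there, against 17.5% of all genes called lower, and 4 were not called. Pdgfra, the growth factor receptor of these progenitors, differed by -1.26 ± 0.23 (SE, adjusted p = 0.0021, limma). Ptprz1 differed by -0.24 (adjusted p = 0.0553, limma), Cspg4 (NG2) by 0.01, Lhfpl3 by -0.09 and Vcan by 0.67, none of which was called.

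The 250 bases before the annotated start of 6 of these genes are shown because calls differed within the ELAV-like family. Elavl2 and Elavl4 had probe sets called lower, Elavl3 had small rises whose calls depended on single arrays, and Elavl1 had no call. Mbnl1 and Mbnl2 are shown because both had probe sets called higher, though not all of their probe sets were called. They are RefSeq sequences of the GRCr8 assembly, which names the chromosomes and positions given, read 5′ to 3′ on the strand of the gene. Capitals mark each match, on either strand, to 5 motifs: the E-boxes CAGCTG and CAGATG, the TATA box TATAAA, the CCAAT box and the GC box GGGCGG.
Elavl1 (chr12:7482626-7482875, minus strand): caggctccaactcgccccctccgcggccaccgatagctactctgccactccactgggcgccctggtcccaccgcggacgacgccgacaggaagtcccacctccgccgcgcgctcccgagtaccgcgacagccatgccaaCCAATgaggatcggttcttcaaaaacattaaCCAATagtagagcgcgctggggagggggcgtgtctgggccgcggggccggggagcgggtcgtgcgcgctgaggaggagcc
Elavl2 (chr5:111202288-111202537, minus strand): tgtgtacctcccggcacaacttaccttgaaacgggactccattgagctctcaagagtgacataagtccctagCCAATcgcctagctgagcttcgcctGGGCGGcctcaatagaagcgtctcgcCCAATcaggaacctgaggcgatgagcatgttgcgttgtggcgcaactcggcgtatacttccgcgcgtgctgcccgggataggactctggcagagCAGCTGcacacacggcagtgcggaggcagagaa
Elavl3 (chr8:28859014-28859263, minus strand): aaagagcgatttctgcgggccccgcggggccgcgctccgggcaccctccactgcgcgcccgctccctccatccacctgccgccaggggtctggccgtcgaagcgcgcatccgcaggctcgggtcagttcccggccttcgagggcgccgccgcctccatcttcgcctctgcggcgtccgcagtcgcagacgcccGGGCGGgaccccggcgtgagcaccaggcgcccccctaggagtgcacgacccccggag
Elavl4 (chr5:130367664-130367913, minus strand): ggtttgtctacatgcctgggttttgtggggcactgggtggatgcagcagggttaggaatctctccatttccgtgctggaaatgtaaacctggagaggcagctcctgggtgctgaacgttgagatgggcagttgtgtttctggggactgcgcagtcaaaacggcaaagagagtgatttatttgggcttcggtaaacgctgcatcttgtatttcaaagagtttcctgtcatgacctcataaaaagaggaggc
Mbnl1 (chr2:146819784-146820033, plus strand): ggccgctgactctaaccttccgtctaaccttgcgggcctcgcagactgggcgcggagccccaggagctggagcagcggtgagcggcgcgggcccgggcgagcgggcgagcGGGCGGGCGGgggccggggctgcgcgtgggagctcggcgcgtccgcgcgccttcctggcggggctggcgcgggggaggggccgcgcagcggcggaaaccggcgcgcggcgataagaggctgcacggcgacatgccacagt
Mbnl2 (chr15:103791938-103792187, plus strand): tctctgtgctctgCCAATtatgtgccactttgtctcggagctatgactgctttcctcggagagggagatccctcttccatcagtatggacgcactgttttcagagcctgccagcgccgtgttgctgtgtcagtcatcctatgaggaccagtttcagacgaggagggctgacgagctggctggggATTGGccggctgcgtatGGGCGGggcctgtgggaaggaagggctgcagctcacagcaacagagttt

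The window of Elavl2 held an E-box CAGCTG 33 bases before the start, besides 2 CCAAT boxes and a GC box. That of Elavl4 held none of the 5 motifs. Elavl1 had 2 CCAAT boxes and Elavl3 had a GC box. Mbnl1 had 2 overlapping GC boxes, and Mbnl2, at the first of its 2 annotated starts, had 2 CCAAT boxes and a GC box. Among all 33469 windows of this length, 12.0% held CAGCTG, 14% CAGATG, 12.9% TATAAA, 34.0% CCAAT and 30.5% GGGCGG. The share of G and C was 49.6% for Elavl4, 57.2% for Mbnl2, 58.4% for Elavl2, 68.4% for Elavl1, 75.6% for Elavl3 and 78.0% for Mbnl1, against a median of 51.2% over all windows. The number of CpG pairs ran from 6 in Elavl4 to 40 in Mbnl1, with a median of 5 over all windows. A match is a description of these letters and does not show that a factor binds there.

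Among the 19 probe sets, 11 were called: 7 were higher and 4 lower in GalC+ cells. That is 57.9% of them, against a background of 26.8% called among all 31042 probe sets. Over the 20826 probe sets with 1 gene symbol alone, 6295 were called, among them 12 of the 19. Counted by gene, Elavl3, Mbnl1 and Mbnl2 had probe sets that rose, Ptbp2, Elavl2 and Elavl4 had probe sets that fell, and no gene had calls in both directions. Of all genes, each read from its most variable probe set, 35.7% were called. In 9 of the 19 probe sets (47.4%) the values of the populations did not overlap, against 29% of all probe sets. The median difference was 0.13 over the 19 and 0.04 over all probe sets. When the spread was estimated for each probe set alone, 7 of the 19 were called, 3 higher and 4 lower, and all 7 were among the 11. Whether fewer cells of a type or less RNA per cell lie behind a difference cannot be told apart in sorted populations measured in bulk.

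**Figure D1:**
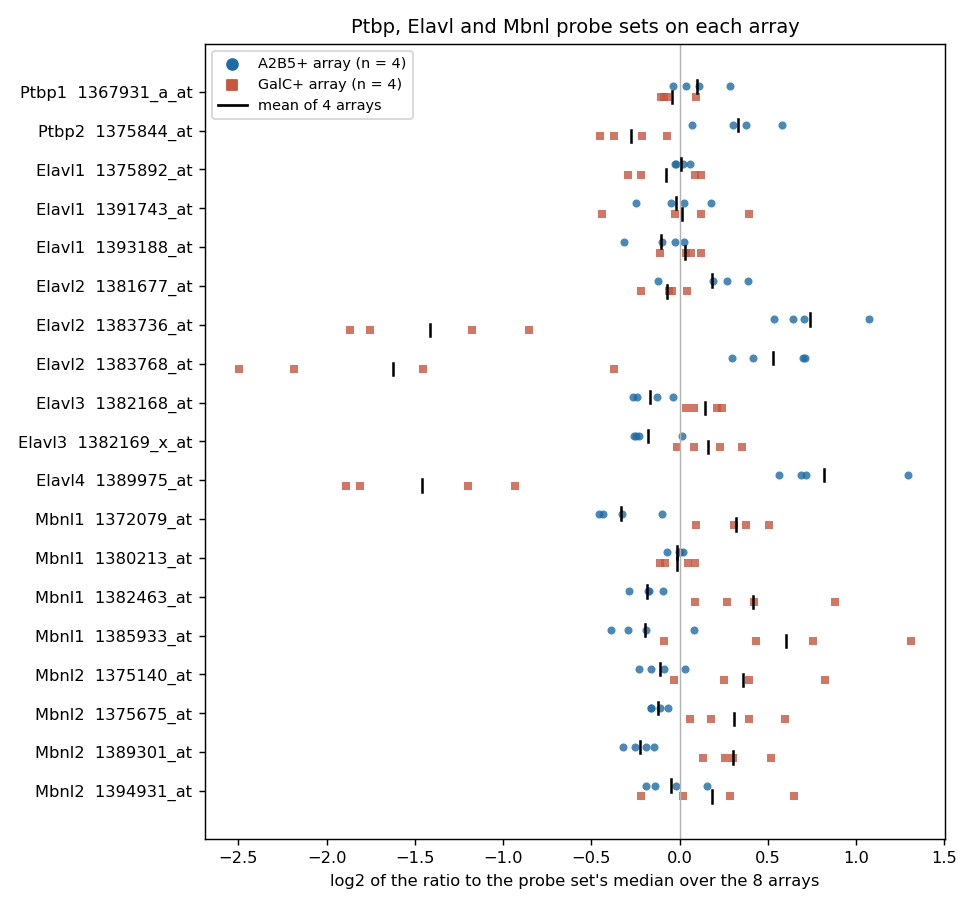
Log2 ratio to the probe set's own median (horizontal axis) for all 19 probe sets of the Ptbp, Elavl and Mbnl genes; each circle is an A2B5+ array, each square a GalC+ array and each bar the mean of 4 arrays. Elavl4 and 2 of the 3 Elavl2 probe sets have all GalC+ arrays to the left of all A2B5+ arrays, with the widest separation on the plot.

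Elavl2 and Elavl4 fell most in GalC+ cells. Elavl4 was 4.83-fold lower and ranked 13th lowest of 14217 genes by its difference. Elavl2 was 4.44-fold and 4.45-fold lower on 2 of its 3 probe sets and was not called on the other. It ranked 20th when read, as each gene was, from its most variable probe set, here 1383768_at. Elavl3 went the other way, by less, and no probe set of Elavl1 was called.

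The Elavl4 probe set 1389975_at had ratios of 1.645, 2.451, 1.477 and 1.609 in A2B5+ replicates 1 to 4. In GalC+ replicates 1 to 4 they were 0.436, 0.285, 0.27 and 0.523. Every A2B5+ array was above every GalC+ array, and replicate 2 was the highest of the A2B5+ arrays. The means were 1.80 ± 0.443 (SD, n = 4) and 0.379 ± 0.122 (SD, n = 4). The difference was -2.27 ± 0.23 (SE) on the log2 scale (adjusted p = 0.000134, limma).

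The Elavl2 probe set 1383736_at had ratios of 1.562, 2.107, 1.446 and 1.629 in the A2B5+ arrays and of 0.442, 0.296, 0.274 and 0.554 in the GalC+ arrays, in the order of replicates 1 to 4. The populations did not overlap, and the order of the arrays within each was close to that of Elavl4, with A2B5+ replicate 2 highest and GalC+ replicate 3 lowest. The difference was -2.15 ± 0.22 (SE; adjusted p = 0.000134, limma). The probe set 1383768_at read 1.634, 1.623, 1.332 and 1.226 in A2B5+ cells and 0.365, 0.22, 0.177 and 0.774 in GalC+ cells. Here GalC+ replicate 4 stood well above the other GalC+ arrays but below every A2B5+ array, and the difference was -2.16 ± 0.38 (SE; adjusted p = 0.00255, limma).

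The remaining Elavl2 probe set, 1381677_at, did not share this size. Its ratios were 1.142, 1.307, 1.204 and 0.918 in A2B5+ cells and 0.858, 0.959, 0.969 and 1.031 in GalC+ cells. A2B5+ replicate 4 lay within the range of the GalC+ arrays. The difference was -0.25 ± 0.11 (SE, adjusted p = 0.134, limma) and was not called, while without A2B5+ replicate 4 it was -0.35 (adjusted p = 0.0277, limma). The mean over the 3 Elavl2 probe sets differed by -1.52 (adjusted p = 0.000453 over genes, limma).

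Elavl3, another gene best known from neurons, rose slightly in GalC+ cells. The probe set 1382168_at had ratios of 0.846, 0.976, 0.833 and 0.916 in A2B5+ cells and of 1.056, 1.179, 1.024 and 1.16 in GalC+ cells, without overlap. The difference was 0.31 ± 0.08 (SE, 1.24-fold; adjusted p = 0.0210, limma). The probe set 1382169_x_at read 0.843, 1.011, 0.851 and 0.836 in A2B5+ cells and 0.989, 1.277, 1.058 and 1.173 in GalC+ cells. Here A2B5+ replicate 2 reached above the lowest GalC+ array, and the difference was 0.34 ± 0.10 (SE, adjusted p = 0.0316, limma).

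These 2 probe sets of Elavl3 have consecutive numbers, and the suffix of the latter marks probes that can match other sequences. The sequences they were built on are not in the sources used here, so they were not taken as independent readings. The call of 1382168_at was lost without A2B5+ replicate 1 (adjusted p = 0.0638), without GalC+ replicate 2 (0.0600) and without GalC+ replicate 4 (0.0513). The call of 1382169_x_at was lost without A2B5+ replicates 1, 3 or 4 (adjusted p = 0.0835, 0.0651 and 0.0868) and without GalC+ replicates 2 or 4 (0.0844 and 0.0691). All of these are limma values over 7 arrays.

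Elavl1 (HuR) had 3 probe sets whose populations all overlapped. The ratios of 1375892_at ran from 0.983 to 1.04 in A2B5+ cells and from 0.815 to 1.087 in GalC+ cells. Those of 1391743_at ran from 0.843 to 1.133 and from 0.738 to 1.315, and those of 1393188_at from 0.804 to 1.017 and from 0.926 to 1.089. The differences were -0.08 (95% interval -0.32 to 0.15), 0.04 (-0.33 to 0.40) and 0.13 (-0.08 to 0.34), and none was called (adjusted p = 0.583, 0.892 and 0.331, limma). The intervals leave out the differences of -2.15 and beyond seen for Elavl4 and for 2 probe sets of Elavl2.

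**Figure D2:**
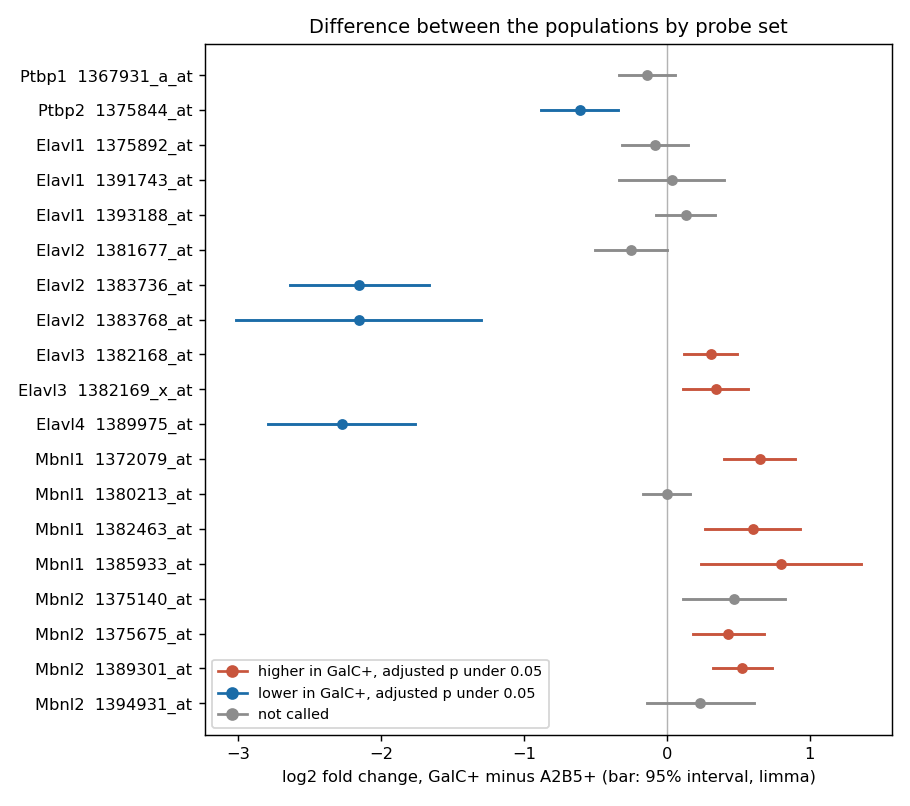
Difference in log2 ratio, GalC+ minus A2B5+ (horizontal axis), for each probe set with its 95% interval from limma; red marks a probe set called higher, blue one called lower and grey one not called. Elavl4 (-2.27) and 2 Elavl2 probe sets (-2.15 and -2.16) lie far to the left, and the called Elavl3, Mbnl1 and Mbnl2 probe sets lie between 0.31 and 0.80.

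Ptbp2 fell in GalC+ cells, while Ptbp1 was not called. The Ptbp2 probe set 1375844_at had ratios of 1.234, 1.496, 1.049 and 1.3 in A2B5+ cells and of 0.774, 0.861, 0.732 and 0.951 in GalC+ cells. The lowest A2B5+ array, replicate 3, was still above the highest GalC+ array, replicate 4. The means were 1.27 ± 0.184 (SD, n = 4) and 0.830 ± 0.0972 (SD, n = 4), a difference of -0.61 ± 0.12 (SE, 1.53-fold lower; adjusted p = 0.00462, limma).

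Ptbp1 was read by 1367931_a_at, with ratios of 0.974, 1.026, 1.217 and 1.077 in A2B5+ cells and of 0.941, 1.068, 0.95 and 0.931 in GalC+ cells. The populations overlapped because GalC+ replicate 2 stood above the other 3 GalC+ arrays. The difference was -0.14 ± 0.09 (SE, 95% interval -0.34 to 0.06; adjusted p = 0.280, limma). Another PTB gene, Ptbp3, which was on a list of related genes, rose by 0.74 ± 0.08 (SE, 1.67-fold; adjusted p = 0.000120 over genes, limma). Its mean ratios were 0.734 ± 0.0498 (SD, n = 4) in A2B5+ cells and 1.22 ± 0.0187 (SD, n = 4) in GalC+ cells.

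Mbnl1 and Mbnl2 rose in GalC+ cells, Mbnl1 on 3 of its 4 probe sets and Mbnl2 on 2 of its 4. The called probe sets of both genes lay between 1.35-fold and 1.74-fold, and the probe sets of each gene differed in how far the GalC+ arrays spread. The mean over a gene's probe sets differed by 0.51 for Mbnl1 (adjusted p = 0.00870 over genes, limma) and by 0.42 for Mbnl2 (adjusted p = 0.0261). With the spread of each probe set alone, 1 of 4 was called for each gene: the calls of Mbnl1 on 1382463_at (adjusted p = 0.0596) and 1385933_at (0.125) and of Mbnl2 on 1375675_at (0.0537) were lost.

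The Mbnl1 probe set 1372079_at had ratios of 0.729, 0.739, 0.934 and 0.797 in A2B5+ cells and of 1.238, 1.296, 1.421 and 1.066 in GalC+ cells. The populations did not overlap, and the difference was 0.65 ± 0.11 (SE, 1.57-fold; adjusted p = 0.00206, limma). The probe set 1382463_at read 0.886, 0.936, 0.884 and 0.818 in A2B5+ cells and 1.206, 1.338, 1.841 and 1.064 in GalC+ cells. It did not overlap either, and GalC+ replicate 3 was the highest array on both. Its difference was 0.60 ± 0.15 (SE; adjusted p = 0.0142, limma).

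The Mbnl1 probe set 1385933_at had the largest difference of the gene and the widest spread. Its ratios were 0.763, 0.875, 1.059 and 0.817 in A2B5+ cells and 1.35, 1.686, 2.483 and 0.941 in GalC+ cells. GalC+ replicate 4 lay below A2B5+ replicate 3, and GalC+ replicate 3 was far above the rest. The difference was 0.80 ± 0.25 (SE; adjusted p = 0.0392, limma). The call was lost without A2B5+ replicates 1, 2 or 4 (adjusted p = 0.0967, 0.0837 and 0.0920) and without GalC+ replicates 1, 2 or 3 (0.0568, 0.0942 and 0.0641, limma), and without GalC+ replicate 3 the difference was 0.56. The remaining probe set, 1380213_at, ran from 0.952 to 1.013 in A2B5+ cells and from 0.925 to 1.063 in GalC+ cells. Its means were 0.991 in both populations, with a 95% interval of the difference from -0.17 to 0.16.

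For Mbnl2, the probe set 1389301_at had ratios of 0.905, 0.799, 0.877 and 0.84 in A2B5+ cells and of 1.234, 1.195, 1.43 and 1.095 in GalC+ cells. The populations did not overlap, and the difference was 0.53 ± 0.09 (SE, 1.44-fold; adjusted p = 0.00230, limma). The probe set 1375675_at read 0.957, 0.893, 0.925 and 0.894 in A2B5+ cells and 1.131, 1.312, 1.51 and 1.043 in GalC+ cells. It did not overlap, and its difference was 0.43 ± 0.11 (SE; adjusted p = 0.0174, limma).

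The other 2 Mbnl2 probe sets overlapped and were not called. The ratios of 1375140_at were 0.894, 0.853, 1.023 and 0.939 in A2B5+ cells and 1.189, 1.311, 1.771 and 0.977 in GalC+ cells, where replicate 4 lay below A2B5+ replicate 3. Its difference was 0.47 ± 0.16 (SE, adjusted p = 0.0531, limma), and without GalC+ replicate 4 it was 0.60 (adjusted p = 0.0106). It was also called with the replicate number as a block (adjusted p = 0.0202), with array weights (0.0317) and over probe sets with 1 gene symbol alone (0.0485). In the fit over genes, where this most variable probe set stands for Mbnl2, it was called too (adjusted p = 0.0453, limma). The ratios of 1394931_at ran from 0.876 to 1.112 and from 0.86 to 1.565, with a difference of 0.23 (95% interval -0.14 to 0.61; adjusted p = 0.342, limma). In GalC+ cells replicate 3 was the highest array and replicate 4 the lowest on all 4 Mbnl2 probe sets.

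Paralogs were then compared within each array, as the log2 ratio of one gene minus that of another, each the mean of the gene's probe sets. Such a value shows unequal change and not which gene changed. There were 5 such pairs, tested by two-sided exact permutation over the 70 splits of the arrays, with p adjusted over the 5, so that 0.0286 is the smallest p before adjustment. With 5 pairs, a pair at that smallest p passes after adjustment only where at least 3 pairs reach it.

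Elavl1 minus Elavl4 averaged -0.85 ± 0.42 (SD, n = 4) in A2B5+ cells and 1.45 ± 0.34 (SD, n = 4) in GalC+ cells. The difference was 2.30, without overlap (exact permutation p = 0.0286, adjusted 0.0476). Elavl1 minus Elavl2 averaged -0.52 ± 0.26 and 1.02 ± 0.33 (SD, n = 4 each), a difference of 1.55 without overlap (exact permutation p = 0.0286, adjusted 0.0476). The signal of Elavl2 and of Elavl4 thus fell relative to that of Elavl1 from A2B5+ to GalC+ cells.

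Elavl1 minus Elavl3 averaged 0.13 ± 0.21 and -0.16 ± 0.16 (SD, n = 4 each), a difference of -0.30 that did not pass (exact permutation p = 0.0857, adjusted 0.0857), while without A2B5+ replicate 2 it was -0.40 (adjusted 0.0357). Ptbp1 minus Ptbp2 averaged -0.24 ± 0.32 and 0.23 ± 0.18 (SD, n = 4 each). The difference of 0.47 did not pass (exact permutation p = 0.0571, adjusted 0.0714), and A2B5+ replicate 3, at 0.21, was the array of that population that lay among the GalC+ values. Without that array the difference was 0.62 (adjusted 0.0357).

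Mbnl1 minus Mbnl2 averaged -0.05 ± 0.06 in A2B5+ cells and 0.04 ± 0.03 in GalC+ cells (SD, n = 4 each). The difference of 0.10, or 1.07-fold, did not overlap (exact permutation p = 0.0286, adjusted 0.0476). With each gene's most variable probe set in place of the mean it was 0.33 and did not pass (adjusted 0.107), and quantile normalization ended the call as well (0.0952). It was also lost without A2B5+ replicate 1 or without any GalC+ array, where its exact permutation p was 0.0571. In these same fits Elavl1 minus Elavl2 and Elavl1 minus Elavl4 stayed at the smallest p of 0.0286, and their adjusted p became 0.0714 because the Mbnl pair no longer reached it.

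**Figure D3:**
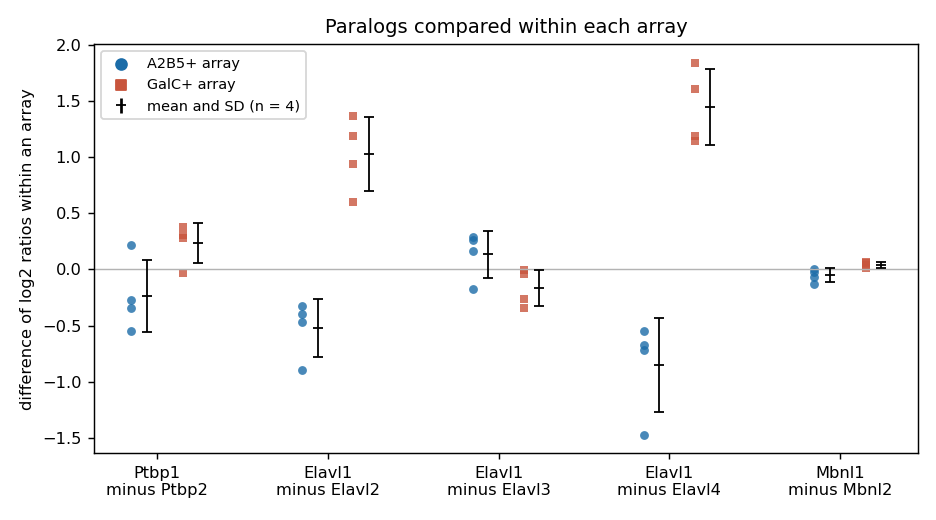
Difference of log2 ratios between paralogs within an array (vertical axis) for 5 pairs; circles are A2B5+ arrays, squares GalC+ arrays, and the black marks give the mean and SD of 4 arrays. The populations are apart for Elavl1 minus Elavl2, Elavl1 minus Elavl4 and, by 0.10 in the mean, Mbnl1 minus Mbnl2; the position of 0 follows from dividing each probe set by its own median.

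The order of the arrays was set beside markers of other cell types. Of 15 measured neuron markers, 10 were lower in GalC+ cells and 0 higher, with a median difference of -1.63, against 17.5% of all genes called lower and 18.2% called higher (35.7% in all). Stmn2 and Dlx1 fell most among them, with differences of -2.67 ± 0.25 and -2.46 ± 0.35 (SE). Of 6 measured markers of neuronal progenitors, 5 were lower, led by Eomes, a transcription factor of these progenitors, at -2.81 ± 0.51 (SE), and Neurod1 at -2.42 ± 0.35 (SE). When each gene's own spread was used, 3 of these 6 were called.

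The mean log2 ratio of the neuron markers lay between 0.35 and 0.60 in the A2B5+ arrays and between -1.24 and -0.52 in the GalC+ arrays. That of the neuronal progenitor markers lay between 0.34 and 1.02 and between -1.52 and -0.28. In both lists GalC+ replicates 3 and 2 were the lowest and replicate 4 the highest of the GalC+ arrays. A2B5+ replicate 2 was the highest of its population. Both held for Elavl4 and for Elavl2 on 1383736_at too. This order of the GalC+ arrays was not particular to the neuronal lists. The oligodendrocyte progenitor markers averaged -0.25, -0.54, -0.63 and -0.12 in GalC+ replicates 1 to 4, with A2B5+ replicate 4 highest. The splicing regulators described below averaged -0.30, -0.50, -0.61 and -0.22, with A2B5+ replicate 2 highest. For Ptbp2 GalC+ replicate 3 was lowest and replicate 4 highest too, but replicate 2 was not among the lowest. The part of neuronal RNA in the difference of Elavl2, Elavl4 and Ptbp2 was not tested. The ratios do not show whether any marker is at background.

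For the genes that rose, the myelin markers averaged between -3.23 and -2.35 in the A2B5+ arrays and between 0.86 and 1.87 in the GalC+ arrays. Of 10 macrophage and microglia markers, 8 were higher in GalC+ cells, against 18.2% of all genes called higher. They were led by the scavenger receptor Cd163 at 5.41 ± 0.20 (SE) and the mannose receptor Mrc1 at 4.12 ± 0.24 (SE). Cx3cr1 differed by -0.14 and Itgam by 0.73, and neither was called. The mean of the 10 markers lay between -1.49 and -0.73 in A2B5+ arrays and between 0.23 and 0.73 in GalC+ arrays. The GalC+ arrays had the order of replicates 3, 2, 1 and 4, from highest to lowest, for the myelin markers and the macrophage markers alike. Mbnl1 on 1372079_at, 1382463_at and 1385933_at had this order too, as did Mbnl2 on 1375140_at, 1375675_at and 1394931_at. Mbnl1 on 1380213_at and Mbnl2 on 1389301_at did not have it. Of 6 mural cell markers 5 were higher, beside the same 18.2% of all genes. Acta2 at 1.42 ± 0.18 (SE) and Rgs5 at 1.21 ± 0.18 (SE) led them, and Cspg4, at 0.01, was not called. The 6 markers averaged between -0.72 and -0.24 in A2B5+ arrays and between 0.14 and 0.81 in GalC+ arrays. Their GalC+ arrays had the order of replicates 3, 1, 2 and 4, from highest to lowest, as did Mbnl2 on 1389301_at. Elavl3 on 1382168_at did not have the order of replicates 3, 2, 1 and 4. GalC+ replicate 3 was its lowest GalC+ array and replicate 2 its highest. The part of macrophage and mural RNA in the rise of the Mbnl genes and of Elavl3 was not tested.

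No astrocyte marker of 8 and no endothelial marker of 5 was called by limma, and 1 and 0 of them had an unadjusted p under 0.05. The largest differences were -0.43 ± 0.33 (SE) for Aqp4 and -0.32 ± 0.30 (SE) for Kdr. Leaving out 1 array moved Aqp4 between -0.63 (without GalC+ replicate 3) and -0.14 (without GalC+ replicate 4), and Kdr between -0.54 (without A2B5+ replicate 2) and -0.06 (without GalC+ replicate 2). Without GalC+ replicate 3, 4 of the 8 astrocyte markers were called, and 2 were when probe sets of a gene were averaged. Nxph1, which fell most among the oligodendrocyte progenitor markers, differed by -2.35 ± 0.40 (SE), and without GalC+ replicate 3, or under quantile normalization, 5 of the 7 progenitor markers were called, 4 lower and 1 higher.

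**Figure D4:**
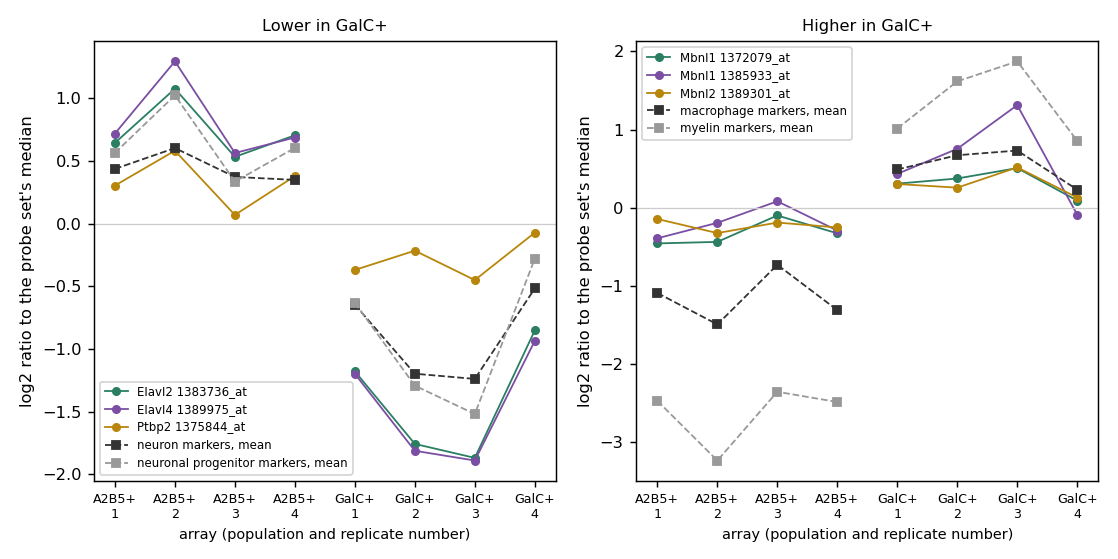
Log2 ratio (vertical axis) on each of the 8 arrays (horizontal axis) for probe sets lower in GalC+ cells beside the means of the neuron and neuronal progenitor markers (left), and for probe sets higher in GalC+ cells beside the means of the macrophage and myelin markers (right); lines only join the values of one probe set or list within a population. Elavl2 and Elavl4 are lowest in GalC+ replicates 2 and 3, where the neuron markers average -1.20 and -1.24.

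Other RNA-binding proteins were read from 2 lists of related genes. Among splicing regulators of related families, 18 of 21 were measured, of which 11 fell, 1 rose and 6 were not called, where 17.5% of all genes were called lower and 18.2% higher. The median difference was -0.52 against 0.04 over all genes. Ptbp3 was the gene that rose. Celf4 and Celf5, CELF proteins that act on many of the exons set by MBNL proteins, fell most, with differences of -2.16 ± 0.32 and -2.11 ± 0.28 (SE; adjusted p = 0.000702 and 0.000412, limma). Rbfox1, Rbfox2 and Rbfox3, splicing factors the last of them the neuronal marker NeuN, had differences of -1.66, -1.17 and -1.81 and were called lower, although other probe sets of Rbfox1 and Rbfox2 reached 0.16 and 0.15. Rbfox3 stands in the neuron list too, and the neuron markers fell beside this list, with their part not tested. The list's mean log2 ratio lay between 0.13 and 0.49 in A2B5+ arrays and between -0.61 and -0.22 in GalC+ arrays.

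Among regulators of messenger stability, transport and translation, 18 of 23 were measured, of which 4 rose, 3 fell and 11 were not called, with a median of -0.06. These 7 calls among 18 genes are close to the background of 35.7% of all genes. Igf2bp2 and Igf2bp3, which bind and protect messengers, rose by 1.12 ± 0.16 and 1.06 ± 0.19 (SE; adjusted p = 0.000648 and 0.00199, limma). Stau2, which carries messengers in dendrites, fell by 1.01 ± 0.20 (SE; adjusted p = 0.00372, limma). Msi2, a translational regulator of progenitor cells, fell by 0.76 ± 0.23 (SE; adjusted p = 0.0250, limma), a call lost in the fits without A2B5+ replicates 1, 2 or 3 and without GalC+ replicates 2, 3 or 4, where adjusted p reached 0.0695. Over both lists, 14 of 36 genes fell and 5 rose, where 17.5% of all genes were called lower and 18.2% higher. The splicing list held 11 of the 14 falls.

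**Figure D5:**
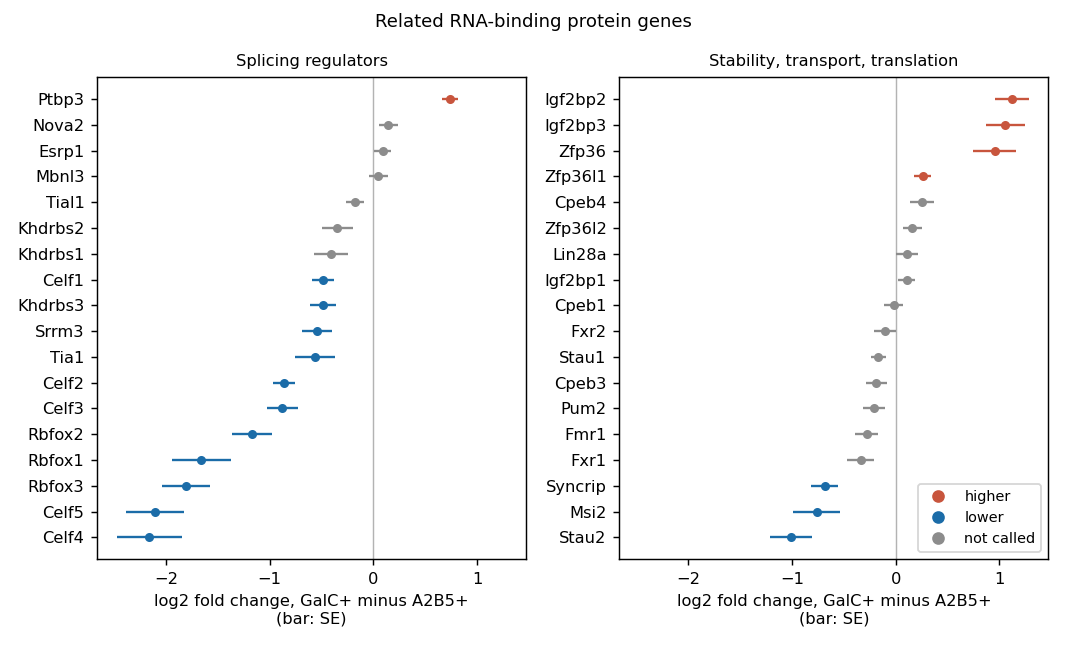
Difference in log2 ratio, GalC+ minus A2B5+ (horizontal axis, with SE bars), for the measured genes of the list of splicing regulators (left) and of the list of stability, transport and translation regulators (right); red is called higher, blue lower and grey not called. On the left 11 of 18 genes are lower and Ptbp3 is higher, and on the right 4 of 18 are higher and 3 lower.

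Transcripts that these proteins are reported to act on were read from 3 lists. Qki itself was not measured, but of 9 measured transcripts reported as bound by QKI, 6 rose and 2 fell, with a median of 1.32, beside the same 18.2% and 17.5% of all genes. Mobp and Mag, genes of the myelin sheath, rose by 5.26 ± 0.38 and 3.94 ± 0.24 (SE). Mobp, Mag and Mbp stand in the myelin list as well. Hnrnpa1, a splicing repressor, fell by 0.65 ± 0.13 (SE; adjusted p = 0.00450, limma). Cdkn1b, an inhibitor of the cell cycle, fell by 0.45 ± 0.15 (SE; adjusted p = 0.0379, limma), and that call held in the fit without A2B5+ replicate 4 and was lost without each of the other 7 arrays, where adjusted p reached 0.0943.

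Of 8 measured transcripts reported as bound by ELAV-like proteins, 2 fell, 0 rose and 3 had an unadjusted p under 0.05, with a median of -0.01, where 35.7% of all genes were called and 17.5% were lower. Gap43, a growth cone protein and classical HuD target, fell by 1.57 ± 0.21 (SE; adjusted p = 0.000483, limma) on one probe set, while its other probe set differed by 0.01. Nrn1, neuritin, fell by 1.12 ± 0.11 (SE; adjusted p = 0.000107, limma). Most neuron markers fell too, and the part of neuronal RNA in these falls was not tested.

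Of 13 measured transcripts with exons reported as set by PTBP, MBNL or NOVA proteins, 6 fell and 2 rose, with a median of -0.36, where 17.5% of all genes were called lower and 18.2% higher. Glra2, a glycine receptor subunit, fell by 1.35 ± 0.20 (SE; adjusted p = 0.000820, limma), and Dab1, an adaptor of reelin signalling, by 0.85 ± 0.16 (SE; adjusted p = 0.00297, limma). Both have other probe sets that did not fall, which reached 0.14 for Glra2 and 0.11 for Dab1. Tpm1, a tropomyosin with many isoforms, rose by 0.94 ± 0.13 (SE; adjusted p = 0.000642, limma) on one probe set. The mean of its 7 probe sets fell by 0.26 (adjusted p = 0.0364), and its probe sets ranged from -0.76 to 0.94. Cltb, a clathrin light chain, rose by 0.26 ± 0.08 (SE; adjusted p = 0.0373, limma), a call lost without A2B5+ replicates 1, 2 or 3 and without GalC+ replicates 2, 3 or 4, where adjusted p reached 0.0979. The part of neuronal RNA in the falls of this list was not tested either. These arrays do not measure exon use, and a change in total signal is not a change in splicing.

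The genes with the pattern nearest to each changed gene were found by the root mean square difference in log2 ratio over the 8 arrays, using the probe set with the largest variance of each gene. For Elavl4 they were Serinc2 (0.131), Hecw1 (0.149) and Mycn (0.186). For Elavl2, read from 1383768_at, they were Stmn3 (0.175), a stathmin of neurons, Islr2 (0.226) and LOC100912227 (0.230). For Ptbp2 they were Zfp428 (0.0454), Hnrnpa1 (0.0714) and Msantd3 (0.0737).

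For Elavl3, read from 1382169_x_at, the nearest were Nudt12 (0.0524), Anks4b (0.0611) and Usp38 (0.0717). For Mbnl1, read from 1385933_at, they were Nab1 (0.137), Cd69 (0.154), an activation antigen of leukocytes, and Gper1 (0.157). For Mbnl2, read from 1375140_at, they were Atp6v1g1 (0.0760), a subunit of the vacuolar proton pump, Dazap2 (0.0827) and Sbds (0.0889). A gene that varies less has smaller differences by construction, so these distances are read within a gene's own 3 and not between genes.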

How the data were processed

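Total RNA of 8 sorted samples, 4 per population, was extracted with a column kit and labelled with biotin by an Affymetrix small-sample procedure, per the labels' protocols. Per the submitters' processing notes, RMA was used, in a version not known here. The values the authors deposited are, as read from the values, linear ratios of a signal to the median of that probe set across the 8 arrays: all 31099 row medians are 1 within 0.0005 and 0 values are at or below 0. The level is thus removed, so dim probe sets could not be filtered, and folds of probe sets near background are compressed. Of the deposited rows, 57 control probe sets were left out.

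The ratios were converted to log2 without a pseudocount or further normalization and compared by limma (version 3.58.1, R 4.3.3), using lmFit and eBayes with two-sided tests. P-values were adjusted by Benjamini-Hochberg over 31042 probe sets or over 14217 genes, each gene read from its probe set with the largest variance, at 0.05. Probe sets were named by the platform's annotation: 20826 had 1 symbol, 436 several and 9780 none. RefSeq promoter windows were matched by symbol for all 10 genes. Lists were described by counts and medians only.

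Named were all members and the 2 largest called rises and falls of every list, or the largest difference in lists without a call. The 3 nearest genes of each changed member were named too. Rbfox1, Rbfox2, Rbfox3, Mbp, Cspg4, Ptprz1, Lhfpl3, Vcan, Cx3cr1 and Itgam were named outside this rule, after their values were seen. The members and lists were chosen with earlier results of these data known. Same-numbered replicates of the populations were not treated as paired, since the labels do not say that a number marks a litter. No batch is given in the sources used here, so none could be tested. As alternatives, the replicate number was used as a block, arrays were quantile normalized or centred on their medians, and a pseudocount of 0.1, other priors on the spread, array weights, probe sets with 1 symbol alone, the mean or the largest-variance probe set of a gene, and leaving out each array were tried. The fit was tested on simulated data.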

Additional observations from a re-analysis of the deposited data

Results flagged for a closer look

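Among 38 groups of 4 arrays (19 probe sets in each population), 2 held an array whose gap to the nearest other array was too large a part of the group's range for Dixon's test at the 95% level; chance gives about 1 in 20. Ptbp1 in GalC+ replicate 2 had a ratio of 1.068, with the other GalC+ arrays between 0.931 and 0.95. Elavl3 on 1382169_x_at in A2B5+ replicate 2 had a ratio of 1.011, with the other A2B5+ arrays between 0.836 and 0.851.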

How the results depend on the processing

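The number of arrays limits the precision, with a median SE of 0.099 over all probe sets, and signal over background is unknown. Of the 19 probe sets, 11 were called; 7 were called with the spread of each probe set alone, 10 with a trended and robust prior, 11 under quantile normalization, median centring or the pseudocount, and 12 with array weights or over probe sets with 1 symbol. Leaving out 1 array gave 8 to 10. The 4 falls (Ptbp2, Elavl4 and 2 probe sets of Elavl2) kept their call in each of these fits. Over all 31042 probe sets, the number called ranged from 6416 to 9194, and 6295 were called among the 20826 with 1 symbol. It was 4071 to 5554 for all genes and 16 to 22 for related RNA-binding protein genes.

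With the replicate number as a block, 12 of the 19 were called, the 11 and Mbnl2 on 1375140_at (adjusted p = 0.0202), and 9194 of all probe sets; 6 of 8 arrays correlated best with their own number, and deviations of same-numbered arrays correlated at 0.40, 0.089, 0.30 and 0.17 for numbers 1 to 4. The block also called Kdr (adjusted p = 0.0332) and ended the call of Cltb (0.0696).

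For the paralog pairs, quantile normalization gave 1.86 for Elavl1 minus Elavl2, 2.76 for Elavl1 minus Elavl4 (adjusted p = 0.0714 for both, exact permutation) and 0.091 for Mbnl1 minus Mbnl2 (0.0952). The probe set with the largest variance gave 2.19, 2.31 (0.0714 for both) and 0.33 (0.107). These 6 values no longer passed. The Elavl pairs kept the smallest p (0.0286) and lost their call because the Mbnl pair no longer reached it; for the Mbnl pair the cause was not tested. Leaving out 1 array gave 0.37 to 0.62 for Ptbp1 minus Ptbp2, 1.42 to 1.69 for Elavl1 minus Elavl2, -0.40 to -0.24 for Elavl1 minus Elavl3, 2.09 to 2.40 for Elavl1 minus Elavl4 and 0.069 to 0.12 for Mbnl1 minus Mbnl2.

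Elavl1 on 1391743_at turned to -0.028 and Mbnl1 on 1380213_at to 0.0091 with array weights, and leaving out 1 array moved them from -0.092 to 0.19 and from -0.036 to 0.030; neither was called. The mean of its probe sets turned Tpm1 to -0.26.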
